A study of Mus musculus with 6 samples.

Results

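The genes that handle cellular iron were read in wild-type (WT) and SWELL1 knockout (KO) 3T3-F442A cells, a mouse preadipocyte line that can form fat cells. The 10 genes cover iron storage (Fth1, Ftl1), uptake (Tfrc, Slc11a2, Steap3), export (Slc40a1), the iron regulatory proteins (Aco1, Ireb2), the ubiquitin ligase subunit that senses iron (Fbxl5) and the heme-degrading enzyme Hmox1. They were taken from the deposited table by symbol, and 9 of the 10 had a row among its 31097 rows. Steap3, an endosomal ferric reductase, was not analysed here. The WT group is the parental line and the KO group is the same line edited with CRISPR/Cas9 at SWELL1 (Lrrc8a), whose protein forms part of the anion channel that opens on cell swelling. Each group has 3 RNA libraries, called biological replicates in the labels. All cells were kept in RPMI medium with 10% FBS and RNA was isolated with TRIZOL. The labels do not say how many clones the KO libraries came from, and the KO sample names carry the mark D3, which no label explains. A difference between clones, or in what D3 stands for, therefore cannot be told apart from one between genotypes. The p-values cover only the spread among the 6 libraries.

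Cells take up iron bound to transferrin through the transferrin receptor, move it out of the endosome through the carrier DMT1, store it in shells built from ferritin heavy and light chains, and release it through ferroportin. The iron regulatory proteins IRP1 and IRP2 adjust these steps by binding a hairpin in the mRNA, the iron-responsive element (IRE), when iron is scarce. Binding near the start of an mRNA blocks its translation, as in ferritin, while binding behind the coding sequence protects the mRNA from decay, as in the transferrin receptor. IRP1 carries an iron-sulfur cluster and works as a cytosolic aconitase when iron is plentiful, whereas IRP2 is degraded through FBXL5. The libraries report mRNA only, so translation, protein and iron itself were not measured.

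The IRE hairpins of these genes are shown because they are what places a gene under this control. The 5′ and 3′ untranslated regions (UTRs) of each coding transcript were searched, and coding sequence was not. The pattern was a C, any 5 bases, the loop CAGTG, a base other than G, and 5 bases pairing with the first 5. At least 4 of the 5 pairs had to form (G with T allowed). Transcript models were GENCODE M21 on GRCm38, and only the transcript strand was searched. Each site is given 5′ to 3′ over 29 bases, with the 6 loop bases in capitals. The 5′ UTR sites lie in exon 1 at chr19:9982732-9982760 on the plus strand (Fth1), chr7:45459779-45459807 on the minus strand (Ftl1) and chr1:45925465-45925493 on the minus strand (Slc40a1).
Fth1: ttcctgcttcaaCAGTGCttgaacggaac
Ftl1: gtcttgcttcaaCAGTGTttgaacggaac
Slc40a1: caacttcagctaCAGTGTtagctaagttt
The 3′ UTR of Tfrc holds 4 matches in exon 19 of 19 on the plus strand, at chr16:32631219-32631247, chr16:32631598-32631626, chr16:32631663-32631691 and chr16:32631710-32631738, given in that order. Slc11a2 holds 1 at chr15:100395153-100395181 on the minus strand, in exon 16 of 16, with 4 of 5 pairs formed where every other site shown has 5 of 5.
Tfrc a: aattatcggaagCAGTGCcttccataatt
Tfrc b: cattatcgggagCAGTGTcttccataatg
Tfrc c: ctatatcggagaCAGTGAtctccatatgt
Tfrc d: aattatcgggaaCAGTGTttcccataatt
Slc11a2: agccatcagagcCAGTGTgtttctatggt

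The Fth1 and Ftl1 sites are identical at 26 of 29 bases, while the Fth1 and Slc40a1 sites share 13 of 29. The 4 Tfrc sites share 18 to 25 of 29 bases with each other. Not every annotated transcript carries its gene's site: it is present in 4 of 5 coding transcripts of Fth1, 1 of 2 of Ftl1, 1 of 4 of Slc40a1, 1 of 3 of Tfrc and 1 of 6 of Slc11a2. The deposited values are per gene, so transcripts with and without the site were not told apart. Aco1, Ireb2, Fbxl5 and Hmox1 hold no match, which says only that this pattern is not in their UTRs. Among all coding genes the pattern occurs in the 5′ UTR of 143 of 20916 (0.684%) and in the 3′ UTR of 664 of 21045 (3.16%).

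**Figure D1:**
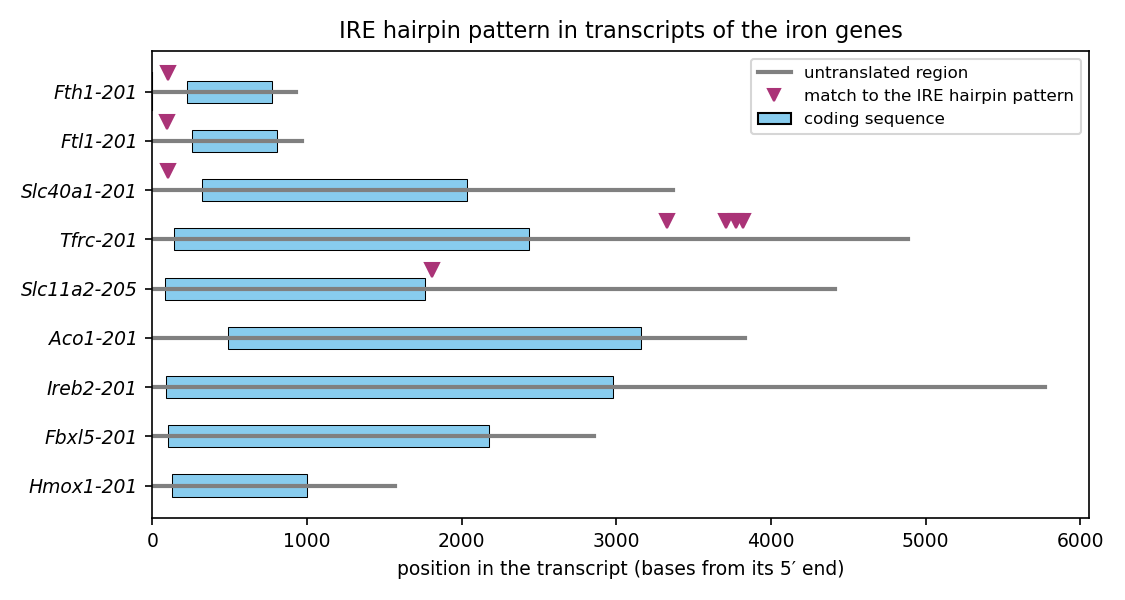
Position of matches to the IRE hairpin pattern (triangles) in 1 transcript of each of the 9 genes, in bases from the 5′ end. Boxes are coding sequence, which was not searched, and lines are untranslated regions. Fth1, Ftl1 and Slc40a1 carry a match before the coding sequence, and Tfrc (4 matches) and Slc11a2 carry theirs behind it. The other 4 genes have none in their untranslated regions.

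Before the results, several facts of the libraries bear on them. The row with Lrrc8a also holds Nup188 and Phyhd1, and read 32.5, 35.0 and 33.2 FPKM for WT against 28.8, 28.0 and 27.3 for KO, so it gives no reading of the edited gene alone. FPKM (fragments per kilobase of transcript, per M fragments) allows levels of different genes to be set side by side. The depth estimated from low values ranged from 17.1 to 20.8 M fragments among WT libraries and reached 18.4 to 26.0 M among KO libraries. The clone AC166252.2 took 16.7% to 23.7% of the FPKM sum in the KO libraries and at most 2.10% in WT, which is why other scalings were tried. Of 8 preadipocyte and fibroblast markers, all were detected and tested, with a summed level of 6739 to 7581 FPKM in WT and 6160 to 6216 in KO (3 higher, 5 lower in KO). Of 8 adipocyte markers, 5 were tested and 4 were lower in KO; their sum was 277 to 358 FPKM in WT and 106 to 152 in KO, Lep was listed at 0 in every library, and Fabp4 stood at 188, 156 and 133 FPKM in WT and 2.45, 3.48 and 4.37 in KO. In these bulk libraries fewer cells of a type and less RNA per cell cannot be told apart, and the part of this difference in the iron results was not tested. The erythroid genes Hbb-b1, Hbb-b2 and Alas2 were listed at 0 in every library, and Klf1 read 0.0405, 0 and 0.201 FPKM in WT and 0.109, 0.0269 and 0 in KO. The globin genes Hba-a1, Hba-a2, Hbb-bs and Hbb-bt had no row and could not be read. Macrophage markers with a row, which leaves out Cd68, summed to 1.29 to 1.64 FPKM in WT, all of it from Lyz2. In KO they summed to 0.115 to 0.362. Lyz2 read 0.317, 0.101 and 0.0948 FPKM in KO. Ptprc, Adgre1 and Cd163 were at 0 in WT and read at most 0.0351 in KO, and Csf1r and Marco were at 0. The 4 hepatocyte markers Alb, Hamp, Apoa1 and Ttr were at 0 throughout.

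In KO cells 6 of the 9 iron genes passed the test: Fth1, Tfrc, Slc11a2 and Aco1 were higher, and Fbxl5 and Hmox1 were lower. Ftl1, Slc40a1 and Ireb2 did not pass. Fth1 alone changed by at least 2-fold. Tests were made with limma on log2(FPKM + 0.5) across the 10515 rows whose mean reached 0.5 FPKM, which all 9 genes did, and a row was called at an adjusted p below 0.05. Across all tested rows 65.2% were called, 28.5% higher and 36.7% lower, and 17.0% were called with at least a 2-fold change, so 6 of 9 is close to the background share and is not a result about these genes. The median log2 fold change (KO minus WT) of the 9 genes was 0.09, against -0.07 for all tested rows. The excess of lower over higher rows turned under each other scaling: the unscaled values gave 2998 higher and 3862 lower rows, median-ratio scaling gave 3496 and 3348, quantile normalization 3427 and 3379, and sum scaling without AC166252.2 gave 3561 and 3119. Groups did not overlap for 7 of the 9 genes, against 71.8% of all tested rows.

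**Figure D2:**
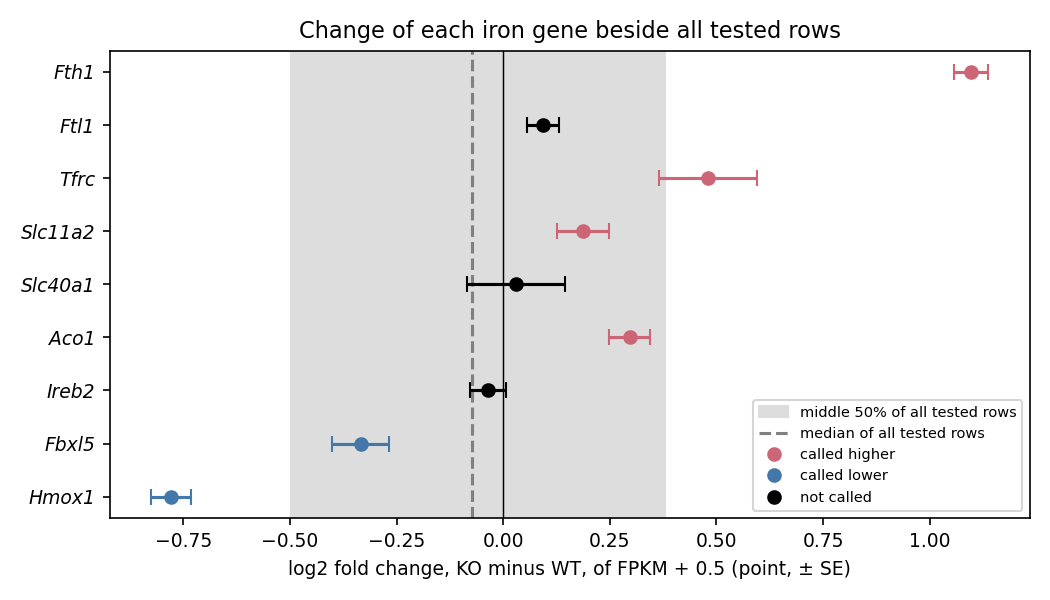
Log2 fold change (KO minus WT, on FPKM + 0.5) of each of the 9 genes, with its SE as bars. The grey band spans the middle 50% of all tested rows, from -0.50 to 0.38; Fth1 (1.10), Tfrc (0.48) and Hmox1 (-0.78) lie outside it and the other 6 genes inside.

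Ferritin heavy chain, the subunit with the ferroxidase site, showed the largest change of the 9 genes. Fth1 (ENSMUSG00000024661, chr19:9980598-9985098, plus strand) read 2538, 2537 and 2397 FPKM over WT replicates 1 to 3, against 5479, 5147 and 5358 over KO replicates 1 to 3. All KO libraries lay far above all WT libraries, and the replicates of a group sat close together. The mean rose 2.14-fold, from 2491 ± 81.3 to 5328 ± 168 FPKM (SD, n = 3), with a log2 fold change of 1.10 (SE 0.04, adjusted p = 8.23e-06, limma). By mean level, Fth1 was the 22nd highest of all rows in WT and the 4th highest in KO. Its change was larger in size than that of 83.2% of tested rows.

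Ferritin light chain, the subunit that supports iron core formation, did not pass the test. Ftl1 (chr7:45457944-45459884, minus strand, in a row that also lists the clone AC151602.1) stood at 2384, 2317 and 2418 FPKM in WT and 2561, 2436 and 2600 in KO. The lowest KO library was just above the highest WT library. The means were 2373 ± 51.3 and 2532 ± 85.5 FPKM, with a log2 fold change of 0.09 (SE 0.04, adjusted p = 0.0664). Ftl1 crossed the threshold under median-ratio scaling (log2 fold change 0.19, adjusted p = 0.0067), under scaling to the FPKM sum without AC166252.2 (0.22 and 0.0188) and without KO replicate 2 (0.12 and 0.029).

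The heavy chain was also compared with the light chain within each library, where no scaling enters. Fth1 divided by Ftl1 was 1.06, 1.10 and 0.991 in WT and 2.14, 2.11 and 2.06 in KO, without overlap. The mean ratio was 1.05 ± 0.053 in WT and 2.10 ± 0.040 in KO (SD, n = 3), 2.00-fold higher. In WT the ranges of the heavy and light chain overlapped, at 2397 to 2538 and 2317 to 2418 FPKM. Reads from ferritin copies could be split between rows, so ferritin levels are uncertain: GRCm38 annotates several ferritin pseudogenes, and a row named Ftl2 and a microRNA stood at 11.2, 11.3 and 11.4 FPKM in WT and 14.0, 12.7 and 13.8 in KO.

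**Figure D3:**
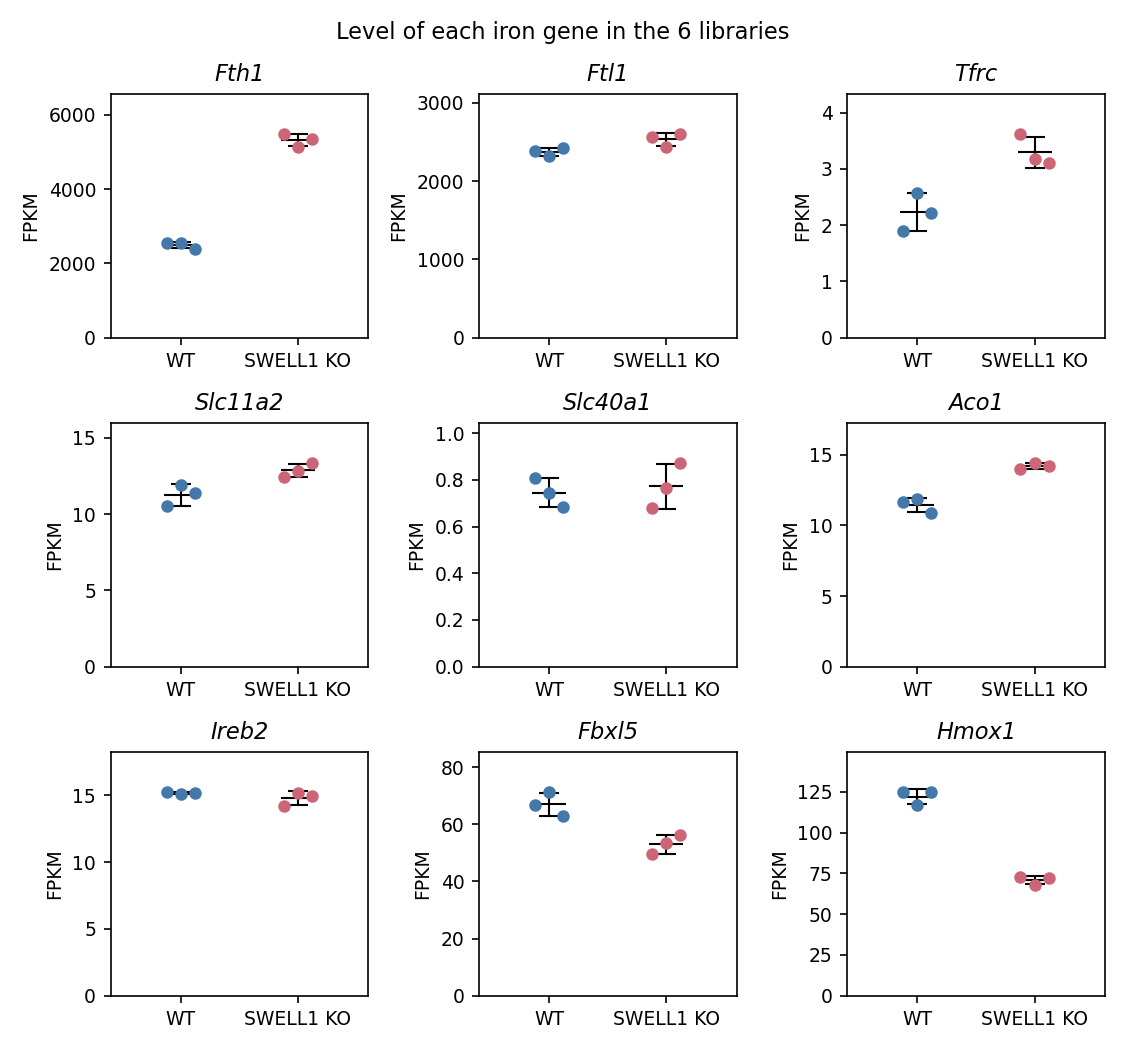
FPKM of each of the 9 genes in every library (points, replicates 1 to 3 from left to right), with the group mean and SD as bars and all axes starting at 0. WT and KO points are apart for every gene except Slc40a1 and Ireb2, and Fth1 has the widest gap, from at most 2538 FPKM in WT to at least 5147 in KO.

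The transferrin receptor, the main entry route for transferrin-bound iron and the mRNA with 4 IRE matches, was higher in KO cells at a low level. Tfrc (chr16:32608920-32632794, plus strand) stood at 1.90, 2.57 and 2.21 FPKM in WT, against 3.62, 3.17 and 3.10 in KO. Every KO library lay above every WT library. The mean rose 1.48-fold, from 2.23 ± 0.33 to 3.30 ± 0.28 FPKM (log2 fold change 0.48, SE 0.11, adjusted p = 0.0116, limma). At the estimated depths these values correspond to 160 to 240 fragments per WT library and 279 to 402 per KO library.

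Fth1 and Tfrc mRNA were both higher in KO, with the larger fold for Fth1. Per 1000 FPKM of Fth1, Tfrc stood at 0.750, 1.01 and 0.922 FPKM in WT, against 0.660, 0.615 and 0.579 in KO. The groups did not overlap, and the mean was 0.895 ± 0.13 in WT and 0.618 ± 0.041 in KO, a difference of -0.53 on the log2 scale.

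The carrier DMT1, which moves ferrous iron out of endosomes, showed a small difference. Slc11a2 (chr15:100387898-100425072, minus strand) stood at 10.5, 11.9 and 11.4 FPKM in WT and 12.5, 12.8 and 13.3 in KO, with the KO libraries above the WT libraries. The mean rose 1.14-fold, from 11.3 ± 0.70 to 12.9 ± 0.44 FPKM (log2 fold change 0.19, SE 0.06, adjusted p = 0.0351, limma). The call was lost when any 1 library other than WT replicate 2 was left out (log2 fold change 0.14 to 0.21, adjusted p 0.0507 to 0.0955). The predicted gene Gm5475 overlaps on the other strand, and whether the kit kept strand is not stated in the labels.

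Ferroportin, the iron exporter, was at a low level and showed no difference detectable at this depth. Slc40a1 (chr1:45908068-45926523, minus strand) stood at 0.808, 0.744 and 0.682 FPKM in WT and 0.680, 0.765 and 0.871 in KO, and the groups overlapped. The means were 0.744 ± 0.063 and 0.772 ± 0.096 FPKM (log2 fold change 0.03, SE 0.12, adjusted p = 0.83). These levels correspond to an estimated 43.7 to 66.9 fragments per library. The sign of the difference turned under quantile normalization and when either WT or KO replicate 3 was left out.

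Of the mRNAs of the 2 iron regulatory proteins, that of IRP1 passed the test and that of IRP2 did not. Aco1, which encodes IRP1 (chr4:40143081-40198338, plus strand), stood at 11.7, 11.9 and 10.9 FPKM in WT and 14.0, 14.4 and 14.2 in KO. The KO libraries were all higher and nearly equal, and the mean rose 1.24-fold, from 11.5 ± 0.50 to 14.2 ± 0.21 FPKM (log2 fold change 0.30, SE 0.05, adjusted p = 0.00225, limma). Ireb2, which encodes IRP2 (chr9:54863789-54912530, plus strand), stood at 15.2, 15.1 and 15.1 FPKM in WT and 14.2, 15.2 and 15.0 in KO. The groups overlapped, with means of 15.2 ± 0.061 and 14.8 ± 0.52 FPKM (log2 fold change -0.04, SE 0.04, adjusted p = 0.478), and the sign of this difference turned under each of the 3 other scalings. Free of scaling, the ratio of Aco1 to Ireb2 was 0.765, 0.785 and 0.721 in WT and 0.986, 0.951 and 0.948 in KO. The ranges did not overlap, and the mean ratio was 0.757 ± 0.033 in WT and 0.962 ± 0.021 in KO, 1.27-fold higher.

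**Figure D4:**
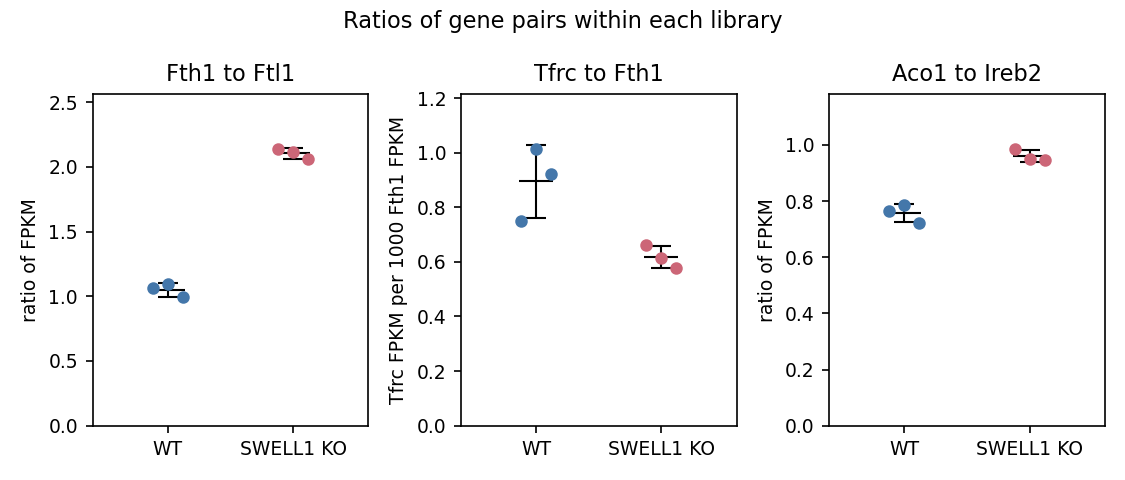
Ratios of FPKM between gene pairs within each library (points), with the group mean and SD as bars. The heavy to light ferritin ratio moved from 1.05 to 2.10, Tfrc per 1000 Fth1 from 0.895 to 0.618 and Aco1 to Ireb2 from 0.757 to 0.962, with no overlap between groups in any panel.

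Fbxl5, the iron-binding substrate receptor of the ligase that degrades IRP2, was lower in KO cells. It lies at chr5:43744615-43821638 on the minus strand. Gm42462, Gm43181 and Gm42555 overlap on the same strand, and Bst1 and Gm43182 on the plus strand. Whether their reads entered the Fbxl5 row was not tested. The level of Fbxl5 was 66.6, 71.3 and 63.1 FPKM in WT and 49.6, 53.4 and 56.2 in KO. All KO libraries lay below all WT libraries. The mean fell 1.26-fold, from 67.0 ± 4.11 to 53.1 ± 3.32 FPKM (log2 fold change -0.33, SE 0.07, adjusted p = 0.00566, limma). Under quantile normalization the call was lost (log2 fold change -0.13, adjusted p = 0.141).

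Hmox1, the inducible heme oxygenase that frees iron from heme, had the largest decrease of the 9 genes. It lies at chr8:75093621-75100589 on the plus strand and stood at 125, 117 and 125 FPKM in WT and 73.0, 68.0 and 72.0 in KO. The lowest WT library was far above the highest KO library. The mean fell 1.72-fold, from 122 ± 4.60 to 71.0 ± 2.67 FPKM (log2 fold change -0.78, SE 0.05, adjusted p = 3.99e-05, limma). Its change was larger in size than that of 71.9% of tested rows.

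The order of the mean levels was the same in both groups: Fth1, Ftl1, Hmox1, Fbxl5, Ireb2, Aco1, Slc11a2, Tfrc and Slc40a1. In WT the neighbours Fth1 and Ftl1, and Aco1 and Slc11a2 (10.9 to 11.9 and 10.5 to 11.9 FPKM), had overlapping ranges. In KO only Ireb2 and Aco1 overlapped, at 14.2 to 15.2 and 14.0 to 14.4 FPKM.

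Genes with an IRE pattern match were called about as often as all tested rows. Of 69 tested genes with a match in the 5′ UTR, 17 were higher and 27 lower (63.8% called, median log2 fold change -0.05). Of 354 with a match in the 3′ UTR, 114 were higher and 118 lower (65.5% called, median -0.01). These values sit beside 65.2% and -0.07 for all tested rows, and a match is not in itself a known element. There were 6 further mRNAs known to carry an IRE (chiefly from work in human cells). Of these 4 were tested, 2 were higher, 1 was lower and 1 was not called, with a median of 0.34. Under each of the 3 other scalings 3 were higher and 1 lower. The phosphatase gene Cdc14a rose 2.98-fold, from 0.726 ± 0.025 to 2.17 ± 0.14 FPKM (log2 fold change 1.12, adjusted p = 0.000113). The kinase gene Cdc42bpa rose 1.52-fold, from 8.64 ± 0.69 to 13.1 ± 0.13 FPKM (0.58, adjusted p = 0.000507). Pfn2, an actin-binding profilin, fell from 19.9 ± 0.72 to 14.5 ± 1.30 FPKM (-0.45, adjusted p = 0.00232).

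Other genes of iron handling were read in 8 lists, which hold 95 genes. Of these 81 had a row of their own and 72 were tested, with 26 higher, 27 lower and 73.6% called, and a median log2 fold change of 0.07. The counts of each list are to be read against the 65.2% called, 28.5% higher and 36.7% lower among all tested rows, with their median of -0.07, and nothing particular to a list is drawn from them. Levels below are mean FPKM in WT and KO (n = 3), and adjusted p-values are from the same limma fit.

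In the list of other iron import and ferric reduction genes, which does not hold Tfrc and Slc11a2 (both higher in KO), 5 were tested, 0 were higher and 4 lower, with a median of -1.21. Of the 5, 4 were lower under median-ratio scaling, 5 under quantile normalization and 3 under sum scaling without AC166252.2. Lcn2, which binds iron-carrying siderophores, fell from 73.9 ± 4.52 to 12.5 ± 1.94 FPKM (log2 fold change -2.53, adjusted p = 1.61e-05). Its receptor gene Slc22a17 fell from 2.44 ± 1.04 to 0.729 ± 0.073 FPKM (-1.21, adjusted p = 0.00602). Steap1, of the STEAP metalloreductase family, fell from 54.9 ± 3.29 to 9.59 ± 0.84 FPKM (-2.46, adjusted p = 6.02e-06). The transferrin gene Trf shares its row with Srprb and Gm20425, and the row read 25.2, 24.3 and 25.8 FPKM in WT and 12.5, 11.8 and 12.9 in KO. Adipocyte marker levels were lower in the same libraries, as given above, and their part in these differences was not tested.

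Of 5 tested chaperones, ferritin turnover genes and ferroxidases, 3 were higher and 2 lower (median 0.30). Under quantile normalization and under sum scaling without AC166252.2, 3 were higher and 1 lower. The ferroxidase gene Cp rose 2.66-fold, from 17.2 ± 1.51 to 45.8 ± 1.72 FPKM (log2 fold change 1.39, adjusted p = 2.71e-05). Ncoa4, the receptor that carries ferritin to lysosomes, rose 1.28-fold, from 23.6 ± 0.32 to 30.2 ± 0.58 FPKM (0.35, adjusted p = 0.000333). Pcbp1, a chaperone that delivers iron to ferritin, fell from 125 ± 5.27 to 84.0 ± 1.25 FPKM (-0.57, adjusted p = 8.58e-05).

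Among 8 tested partners of the IRP ligase and of iron and oxygen sensing, 2 were higher, 2 lower and 4 not called, and the median of -0.05 turned to 0.04, 0.06 and 0.06 under the 3 other scalings. Skp1a, the adaptor that joins F-box proteins such as FBXL5 to the ligase, rose 1.61-fold, from 80.8 ± 2.26 to 130 ± 2.64 FPKM (log2 fold change 0.68, adjusted p = 2.77e-05). Hif1a, the oxygen-regulated subunit of HIF-1, fell from 182 ± 27.1 to 61.6 ± 3.34 FPKM (-1.55, adjusted p = 7.95e-05). Fam96b, of the complex that delivers iron-sulfur clusters to cytosolic and nuclear proteins, fell from 33.3 ± 2.01 to 20.2 ± 0.69 FPKM (-0.70, adjusted p = 0.000129). Its partner Ciao1 was listed at 0, 34.7 and 31.2 FPKM in WT, against 27.0, 0 and 26.5 in KO, so no fold is given.

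**Figure D5:**
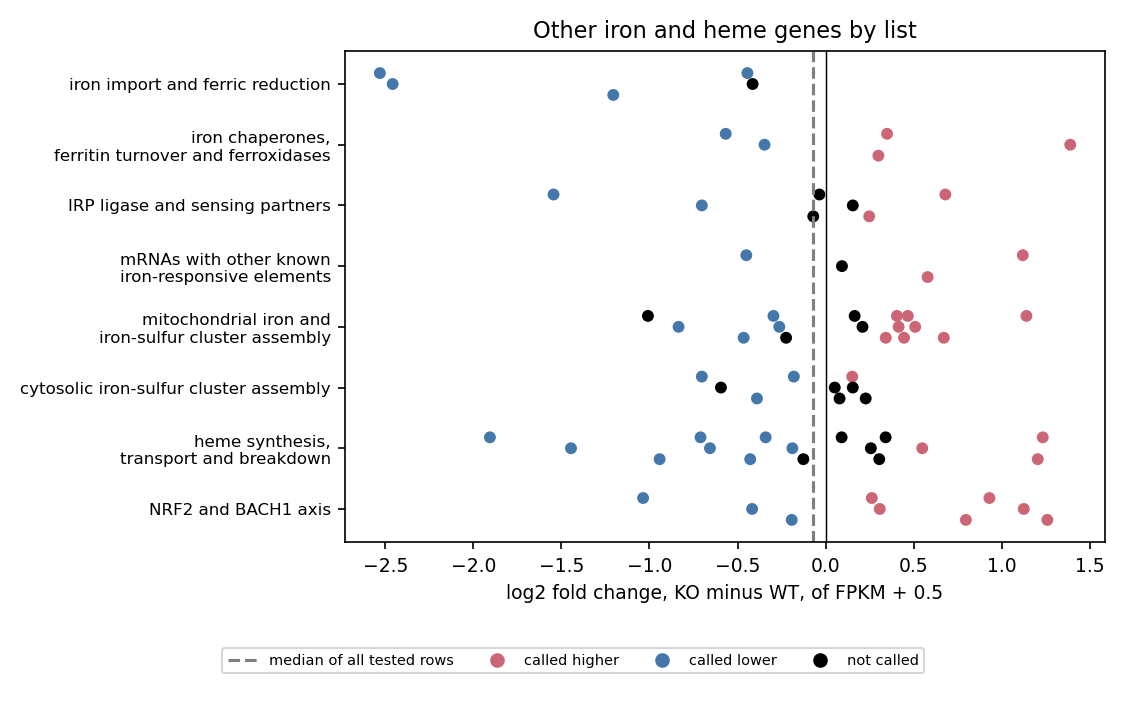
Log2 fold change (KO minus WT, on FPKM + 0.5) of 69 tested genes in 8 lists, 1 point per gene and list, coloured by call; genes with a library at 0 are left out. Import genes lie left of the all-row median (dashed, -0.07), and the other lists hold points on both sides of it.

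In the list of mitochondrial iron and iron-sulfur cluster assembly, 17 were tested, with 9 higher, 4 lower and 4 not called (median 0.34). Of all tested rows, 65.2% were called, 28.5% higher and 36.7% lower. Median-ratio scaling gave 10 higher and 4 lower list genes, quantile normalization 9 and 3, and sum scaling without AC166252.2 10 and 2. Glrx5, which passes on newly made clusters, rose 2.23-fold, from 30.6 ± 0.11 to 68.1 ± 2.52 FPKM (log2 fold change 1.14, adjusted p = 7.09e-06). The iron importer mitoferrin-1, Slc25a37, rose 1.62-fold, from 15.4 ± 2.00 to 24.9 ± 4.64 FPKM (0.67, adjusted p = 0.0102). The cluster carrier Nfu1 fell from 50.3 ± 1.17 to 28.0 ± 1.82 FPKM (-0.84, adjusted p = 6.02e-05). Isca2, counted among the higher genes, was listed at 0 in every WT library and stood at 17.7, 18.6 and 18.5 FPKM in KO. A 0 in this table can be a failed estimate.

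Of 10 tested genes of cytosolic cluster assembly, 1 was higher, 3 were lower and 6 were not called, and the median of -0.06 was above 0 under the 3 other scalings. Besides Fam96b, Narfl fell from 11.4 ± 0.25 to 8.58 ± 0.41 FPKM (log2 fold change -0.39, adjusted p = 0.000958). The scaffold gene Nubp2 fell from 18.6 ± 0.38 to 16.4 ± 1.03 FPKM (-0.18, adjusted p = 0.0301), a call lost in 8 of 16 alternatives.

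The heme list had 16 tested genes, with 3 higher, 8 lower and 5 not called (median -0.16), beside 65.2% called of all tested rows. Under the 3 other scalings 6 or 7 were lower, and the median was -0.07, -0.08 and -0.04. Cpox, an enzyme of heme synthesis, fell from 26.7 ± 1.41 to 6.75 ± 0.54 FPKM (log2 fold change -1.91, adjusted p = 9.58e-06). Abcb6, an ABC transporter linked to porphyrin transport, fell from 9.25 ± 0.59 to 3.09 ± 0.33 FPKM (-1.45, adjusted p = 4.72e-05). Fech, which inserts iron into protoporphyrin as the last step of heme synthesis, rose 2.40-fold, from 13.1 ± 0.30 to 31.6 ± 1.84 FPKM (1.23, adjusted p = 1.43e-05).

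NRF2 induces and BACH1 represses Hmox1 and the ferritin genes in textbook accounts, so genes of this axis were read beside them. All 10 tested genes were called, 6 higher and 4 lower (median 0.28), against 65.2% of all tested rows, and under each of the 3 other scalings 6 were higher and 3 lower. Of the genes for these factors, Nfe2l2 (NRF2) had a log2 fold change of -0.19 and Bach1 one of 0.26. Outside this list, Fth1 was higher, Hmox1 lower and Ftl1 not called. Nqo1, a quinone reductase and standard NRF2 target, rose 2.47-fold, from 9.43 ± 0.70 to 23.3 ± 2.62 FPKM (log2 fold change 1.26, adjusted p = 9.93e-05). The cystine carrier gene Slc7a11, another such target, rose 2.71-fold, from 1.15 ± 0.022 to 3.11 ± 0.38 FPKM (1.13, adjusted p = 0.000176). Mafk, a small MAF partner of both factors, fell from 14.1 ± 0.55 to 6.65 ± 0.68 FPKM (-1.04, adjusted p = 0.000104). Maff, another small MAF gene, stood at 22.6, 23.6 and 18.7 FPKM in WT and was listed at 0, 0 and 11.1 in KO, and its call was lost in 6 of 16 alternatives.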

How the data were processed

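The authors deposited 1 table of values for 6 libraries. No header names the unit: FPKM is inferred from Cufflinks 2.02, which the submitters' processing notes name beside TopHat and the build GRCm38, and from the values, so the deposited values are read here as FPKM. Depth was taken from the lowest values of long genes (1240 with 1 transcript of 2500 bases or more), which sit at the worth of 1 fragment. The 10515 rows averaging 0.5 FPKM or more were fitted by limma (version 3.58.1, R version 4.3.3) after log2(FPKM + 0.5), two-sided, with a trend of variance on level and Benjamini-Hochberg adjustment over all tested rows. This scale understates the change of low genes. The same steps were tested on simulated data. Ratios were taken within libraries without a test. Tables and plots were made in Python 3.11.15 (pandas 2.3.3, numpy 2.4.6, matplotlib 3.10.9). UTRs and coordinates came from GENCODE M21. The genes and lists were chosen with earlier results of these data known. From each list, up to 3 called genes with the largest change, groups that did not overlap and no library at 0 were named, plus genes with a library at 0 and at least 5 FPKM in another. Nfe2l2 and Bach1 were given besides, as the genes of NRF2 and BACH1. Alternatives covered the pseudocount, filter, scaling, variance model, replicate block and leaving out each library. The summed level of the erythroid markers is not reported here.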

Additional observations from a re-analysis of the deposited data

How the results depend on the processing

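Fth1 (log2 fold change 1.06 to 1.22), Tfrc (0.39 to 0.58), Aco1 (0.26 to 0.41) and Hmox1 (-0.81 to -0.56) kept their direction and call in all 16 alternatives run. Fbxl5 lost its call under quantile normalization, where 1 of the 9 genes was called lower instead of 2. Slc11a2 lost its call in 5 of 16 alternatives and Ftl1 gained one in 3, as given with their values above. Ireb2 reversed to 0.055 under median-ratio scaling, 0.067 under quantile normalization and 0.081 under sum scaling without AC166252.2. Slc40a1 reversed to -0.089 under quantile normalization, ranged from -0.025 to 0.083 with 1 library left out, and had no value with a minimum mean of 1 FPKM. The cause of these changes was not tested. The 3 ratios kept their direction in each of 7 alternatives, which left out 1 library or added the pseudocount to both values. Leaving out a library could not have reversed a direction, because the groups did not overlap in any ratio, so those runs are no separate check. With the pseudocount added, the log2 difference (KO minus WT) was 1.00 for Fth1 to Ftl1, -0.62 for Tfrc to Fth1 and 0.33 for Aco1 to Ireb2. Sum scaling moved the median of all tested rows from -0.07 to 0.04 (log2), and over the alternatives 6303 to 7595 rows were called. Same-numbered WT and KO libraries did not deviate together (correlations 0.003, 0.012 and -0.09). With so few libraries these values cannot exclude that the numbers pair the samples, and the main fit used no pairing. With a replicate block 6534 rows and 6 of the 9 genes were called. Depth limits the reading of Slc40a1, at an estimated 43.7 to 66.9 fragments per library, more than that of Tfrc, at 160 to 402.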
